A study of Homo sapiens with 6 samples.

Results

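Carbonic anhydrases and the bicarbonate transporters of the SLC4 family set the pH on both sides of the plasma membrane. The genes described here were CA2, CA9, CA11, CA12, CA13, SLC4A2, SLC4A4 and SLC4A7, 8 of the 58884 genes in the deposited table, picked by symbol with earlier results of these data known. Each symbol stood on a single row of the table, so no measured value was needed to choose between rows. RNA was sequenced from DBTRG, an established human glioblastoma line with the labelled genotype WT, in 2 groups of 3 libraries. The first group grew for 5 days in a soft gel (3D) and the second for 5 days on a rigid dish (2D). No drug or added gene is given for either group. All libraries came from 1 cell line, and the labels do not say whether replicates were separate cultures and p-values therefore cover only how these 6 libraries scatter, a scatter that may be technical. Values given with ± are the mean and the SD of 3 libraries. Of the 8, there were 4 genes that were higher in soft gel (CA12, SLC4A4, SLC4A7 and CA11), 3 that did not pass the test (CA2, CA13 and SLC4A2) and 1, CA9, that had too few counts to be tested. Of all 16098 genes tested, 15.4% were called higher and 13.2% lower.

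Carbonic anhydrases are zinc enzymes that interconvert carbon dioxide and bicarbonate, releasing or taking up a proton. CA2 and CA13 work in the cytosol, CA9 and CA12 span the membrane with the catalytic domain outside the cell, and CA11 belongs to the carbonic anhydrase-related proteins, which lack the enzyme activity. SLC4A4 (NBCe1) and SLC4A7 (NBCn1) carry sodium and bicarbonate, usually into the cell, and SLC4A2 (AE2) exchanges chloride for bicarbonate, usually moving bicarbonate out. In glioma, CA9 and CA12 are known as genes that can be induced under hypoxia, and SLC4A4 is well known from astrocytes.

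Depth and identity were checked first. Libraries held 20911340 to 25901460 counts, and 3 counts, the limit that a count of 0 allows in a library, corresponded to 0.112 to 0.141 CPM (TMM-scaled counts, each library brought to the same total). Such limits cover counting error only, because PCR duplicates are not independent molecules. The glioma markers VIM (2618 ± 153 CPM in soft gel, 3657 ± 392 CPM on the rigid dish), CD44 and NES were abundant, whereas the astrocyte marker GFAP had 7 to 39 counts per library and OLIG2 had 0 counts in every library. S100B and AQP4 were also low, at 1.30 and 1.28 CPM in soft gel and 0.653 and 0.836 CPM on the rigid dish. Of 8 tested genes of this list, 2 were higher (SOX2 and CD44) and 3 lower (VIM, NES and EGFR). Among all genes tested, 15.4% were called higher and 13.2% lower. Another 20 genes mark other cell types. The 6 immune genes summed to 36.0 to 45.1 TPM (an expression value scaled for gene length and library total) in soft gel and 8.84 to 13.1 TPM on the rigid dish. CD68, a lysosomal protein, supplied most of that sum (41.1 ± 3.82 CPM in soft gel, 12.01 ± 2.54 CPM on the rigid dish), and both immune genes with enough counts to be tested, CD68 and the myeloid integrin ITGAM, were higher in soft gel. ITGAM had 22, 31 and 19 counts in soft gel, against 8, 2 and 3 counts on the rigid dish (log2 fold change 2.49, edgeR adjusted p = 0.00841). It passed the low-count filter through the soft gel libraries, where it is high. PTPRC, the leukocyte marker, averaged 0.437 CPM in soft gel and 0.236 CPM on the rigid dish and was not tested. In soft gel the 5 endothelial genes summed to 0.8 to 2 TPM, the 5 epithelial genes to 16.6 to 19.6 TPM and the 4 neuronal genes to 6.23 to 10.8 TPM, and on the rigid dish these sums were 0.35 to 1.12, 21.5 to 30.6 and 12.5 to 14.0 TPM. The part of such genes in the results was not tested. In a principal component analysis, 64.2% of the variance lay along an axis on which the groups did not overlap, and rigid dish 1 stood furthest out on the next axis.

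CA12 and CA9 face the outside of the cell. CA12 showed the largest fold change among the tested members, at 26.8 ± 3.79 CPM in soft gel against 6.24 ± 1.07 CPM on the rigid dish, while CA9 was at or near the counting limit in 5 of the 6 libraries. CA12 (ENSG00000074410, hg38 chromosome 15, 63321378 to 63382161, minus strand) had 566, 759 and 558 counts in soft gel, against 135, 152 and 159 counts on the rigid dish. All soft gel libraries lay far above all rigid dish libraries, and no other annotated gene overlaps it. Its log2 fold change was 2.10 (SE 0.182, adjusted p = 0.000284 by the quasi-likelihood test of edgeR, with Benjamini-Hochberg adjustment over 16098 genes), and 208 of the 16098 genes tested had a log2 fold change in the same direction as large or larger. The call was kept under all 15 alternatives run, with log2 fold changes of 1.54 to 2.19. The smallest came from the deposited TPM with a pseudocount of 1. The ratio of TPM to CPM, relative to each library's median, was 0.519, 0.502 and 0.458 in soft gel. On the rigid dish it was 0.612, 0.580 and 0.550. This shift between the groups was as low or lower in only 4.69% of 12140 genes compared. In bulk RNA, more cells expressing CA12 and more CA12 RNA per cell cannot be told apart.

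CA9 (ENSG00000107159, chromosome 9, 35673856 to 35681159, plus strand) had 1, 0 and 1 counts in soft gel, against 37, 4 and 1 counts on the rigid dish. A single library, rigid dish 1, held nearly all of them, and the groups overlapped. The ratio of counts per sequenced read was 0.0514 (soft gel over rigid dish, 95% exact counting interval 0.00603 to 0.198), and without rigid dish 1 it was 0.281 (0.0267 to 1.72), an interval that includes equal levels. Outside that library the depth was too low to detect a difference. These intervals cover counting error only. CA9 did not pass the low-count filter. The authors' deposited table lists a log2 fold change of -0.90 with an adjusted p of 0.0398 for CA9, and edgeR without a filter also called it lower (adjusted p = 0.000648). The 5′ end of CA9 overlaps ARHGEF39 on the opposite strand, and no strand setting is given in the sources used here. ARHGEF39 had 118, 94 and 101 counts in soft gel, against 254, 135 and 92 counts on the rigid dish, so rigid dish 1 was the highest library for both genes, and the part of that neighbour in the CA9 counts was not tested.

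The promoters of both genes are shown because CA12 and CA9 are textbook targets of hypoxia-inducible factors (HIF) and only CA12 had enough counts to be tested. Both come from RefSeq (GRCh38.p14) and cover 250 bases before to 50 bases from the annotated start. Capitals mark matches, on either strand, to the HIF core letters ACGTG or GCGTG and to the AP-1 motif TGANTCA. The first is CA12 (chr15:63381797-63382096, minus strand) and the second is CA9 (chr9:35673678-35673977, plus strand).
CA12: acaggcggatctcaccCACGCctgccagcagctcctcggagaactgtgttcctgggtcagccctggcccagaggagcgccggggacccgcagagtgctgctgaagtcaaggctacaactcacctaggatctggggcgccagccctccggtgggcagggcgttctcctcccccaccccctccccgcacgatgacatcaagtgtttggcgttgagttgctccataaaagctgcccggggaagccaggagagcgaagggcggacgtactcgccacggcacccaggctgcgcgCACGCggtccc
CA9: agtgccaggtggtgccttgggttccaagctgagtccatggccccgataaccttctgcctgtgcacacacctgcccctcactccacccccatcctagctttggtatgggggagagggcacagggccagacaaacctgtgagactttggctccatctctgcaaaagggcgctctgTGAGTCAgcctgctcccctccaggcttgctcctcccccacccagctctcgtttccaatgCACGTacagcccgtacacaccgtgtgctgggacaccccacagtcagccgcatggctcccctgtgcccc
The CA12 window held GCGTG on the reverse strand at 2 places (offsets -234 and 39 from the start). The CA9 window held ACGTG on the reverse strand at offset -18 and TGANTCA at offset -77. Of 35116 promoter windows of that length, 21.4% held ACGTG, 36.5% held GCGTG and 7.71% held TGANTCA, and a match is a description of letters, not of a bound site. RefSeq windows were found for 5 of the 8 genes (CA9, CA12, SLC4A2, SLC4A4 and SLC4A7). CA2, CA11 and CA13 were not matched.

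**Figure D1:**
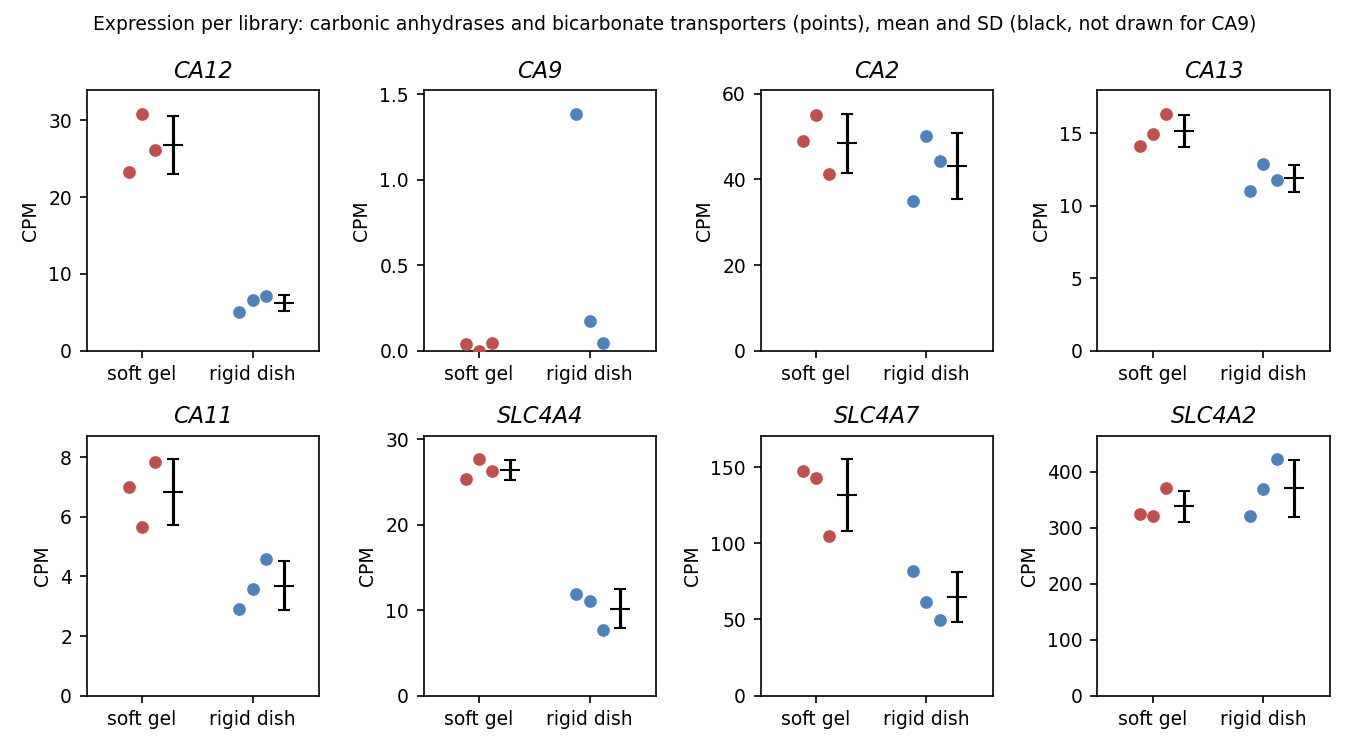
CPM (y axis, linear, from 0) of each of the 8 genes in the 3 soft gel (red) and 3 rigid dish (blue) libraries, with the mean and SD in black except for CA9. CA12, SLC4A4, SLC4A7, CA11 and CA13 had no overlap between the groups, with soft gel above, while CA2 and SLC4A2 overlapped and CA9 was above 1 CPM in rigid dish 1 alone.

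The cytosolic anhydrases did not pass the test. CA2 (ENSG00000104267, chromosome 8, 85463852 to 85481493, plus strand) had 49.0, 55.0 and 41.3 CPM in soft gel, against 34.9, 50.2 and 44.4 CPM on the rigid dish. The groups overlapped broadly, and the difference on the log2 scale was 0.17 with an SE of 0.162 (edgeR adjusted p = 0.459). CA13 (ENSG00000185015, chromosome 8, 85220587 to 85284073, plus strand) had 14.1, 15.0 and 16.3 CPM in soft gel, against 11.04, 12.9 and 11.8 CPM on the rigid dish. The CA13 groups did not overlap, but its log2 fold change of 0.35 (SE 0.143) missed the threshold (edgeR adjusted p = 0.0933, and 0.0711 to 0.348 over the alternatives). Antisense neighbours had at most 9 counts in any library at CA2 (CA3-AS1) and at most 1 count at CA13 (AC011773.3).

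CA11, which encodes a related protein without carbonic anhydrase activity, was higher in soft gel. It had 170, 139 and 167 counts in soft gel, against 78, 83 and 102 counts on the rigid dish, which is 6.83 ± 1.11 CPM against 3.69 ± 0.831 CPM. The groups did not overlap. The log2 fold change of CA11 (ENSG00000063180, chromosome 19, 48637942 to 48646312, minus strand) was 0.89 (SE 0.231, edgeR adjusted p = 0.0210). The call was lost without soft gel 1 (edgeR adjusted p = 0.0773), soft gel 3 (0.0600) or rigid dish 2 (0.0795), and on the deposited TPM (limma adjusted p = 0.0822 and 0.0742), with the direction kept each time. Its TPM scattered more than its counts. The TPM were 8.57, 7.99 and 16.9 in soft gel, against 4.21, 6.42 and 5.14 on the rigid dish, and the ratio of TPM to CPM, relative to each library's median, ran from 2.01 to 3.76. The spread of that ratio over the 6 libraries (coefficient of variation 0.264) was as wide or wider than in 95.6% of 12140 genes with 50 counts and 0.5 TPM or more in every library. The release 29 annotation of GENCODE lists 4 CA11 transcripts of 275 to 1844 bases, and their separate levels were not measured.

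Both sodium bicarbonate cotransporters were higher in soft gel. SLC4A4 (ENSG00000080493, chromosome 4, 71062667 to 71572087, plus strand) had 614, 681 and 560 counts in soft gel, against 317, 256 and 170 counts on the rigid dish. It averaged 26.4 ± 1.19 CPM in soft gel and 10.2 ± 2.25 CPM on the rigid dish, a log2 difference of 1.37 with an SE of 0.178 (edgeR adjusted p = 0.00141). The soft gel libraries were tightly grouped, and the rigid dish libraries, all lower, were more spread.

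SLC4A7 (ENSG00000033867, chromosome 3, 27372721 to 27484420, minus strand) had 3586, 3519 and 2234 counts in soft gel, against 2193, 1434 and 1110 counts on the rigid dish. After scaling these were 148, 143 and 105 CPM in soft gel, against 82.1, 61.8 and 49.7 CPM on the rigid dish, so the groups did not overlap although soft gel 3 came close to rigid dish 1. Its log2 fold change was 1.03 (SE 0.198, edgeR adjusted p = 0.00655). Both calls were kept under all 15 alternatives run, with log2 fold changes of 0.98 to 1.49 for SLC4A4 and 0.80 to 1.23 for SLC4A7. For both genes rigid dish 1 was the highest of its group and rigid dish 3 the lowest.

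The upstream promoter window of SLC4A7 (RefSeq, GRCh38.p14, chr3:27484335-27484634, minus strand), shown because it is the abundant transporter that changed, held GCGTG at 3 places (capitals, either strand) and neither ACGTG nor TGANTCA.
SLC4A7: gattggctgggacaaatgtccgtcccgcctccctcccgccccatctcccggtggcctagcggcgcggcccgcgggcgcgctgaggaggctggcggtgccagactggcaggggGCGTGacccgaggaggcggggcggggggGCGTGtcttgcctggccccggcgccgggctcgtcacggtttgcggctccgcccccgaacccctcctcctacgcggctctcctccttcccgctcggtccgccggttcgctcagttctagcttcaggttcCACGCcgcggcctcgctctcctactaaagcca
RefSeq lists another SLC4A7 window with none of these motifs and 5 windows for SLC4A4, of which 2 held TGANTCA and 2 held GCGTG. For SLC4A2, which did not pass the test, RefSeq lists 4 windows, each with GCGTG and without TGANTCA. Its windows 3 and 4 by position, which overlap each other, held 6 ACGTG matches each over both strands. These matches lie in overlapping pairs, so each pair is a single palindrome, CACGTG, counted on both strands. Both windows hold the same sites. Which start these cells used was not measured.

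SLC4A2, the chloride-bicarbonate exchanger and the most abundant member, did not pass the test. SLC4A2 (ENSG00000164889, chromosome 7, 151057210 to 151076527, plus strand) had 324, 320 and 370 CPM in soft gel, against 321, 369 and 422 CPM on the rigid dish. The groups overlapped. The log2 fold change was -0.13 (SE 0.128, edgeR adjusted p = 0.457) on counts and turned positive on the deposited TPM (0.08 with both pseudocounts, limma adjusted p = 0.598 and 0.604), so no direction can be given. The TPM were 183, 167 and 197 in soft gel, against 187, 165 and 162 on the rigid dish. Its 5′ end overlaps CDK5 on the opposite strand, which also did not pass the test (log2 fold change -0.09, edgeR adjusted p = 0.670).

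Of the 7 members tested, 4 (CA12, SLC4A4, SLC4A7 and CA11) were higher and 0 lower by edgeR, where 15.4% of all genes tested were called higher and 13.2% lower. DESeq2 also gave 4 and 0, and at an unadjusted p under 0.05 edgeR gave 5 and 0. In 5 of the 7 the soft gel libraries all lay above the rigid dish libraries, where 23.5% of all genes did so, and in 0 of the 7 they all lay below, where 21.1% of all genes did. The members' median log2 fold change was 0.89, against 0.05 over all genes tested. Since the symbols were chosen with earlier results known, these shares describe the chosen genes and support nothing about the families.

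**Figure D2:**
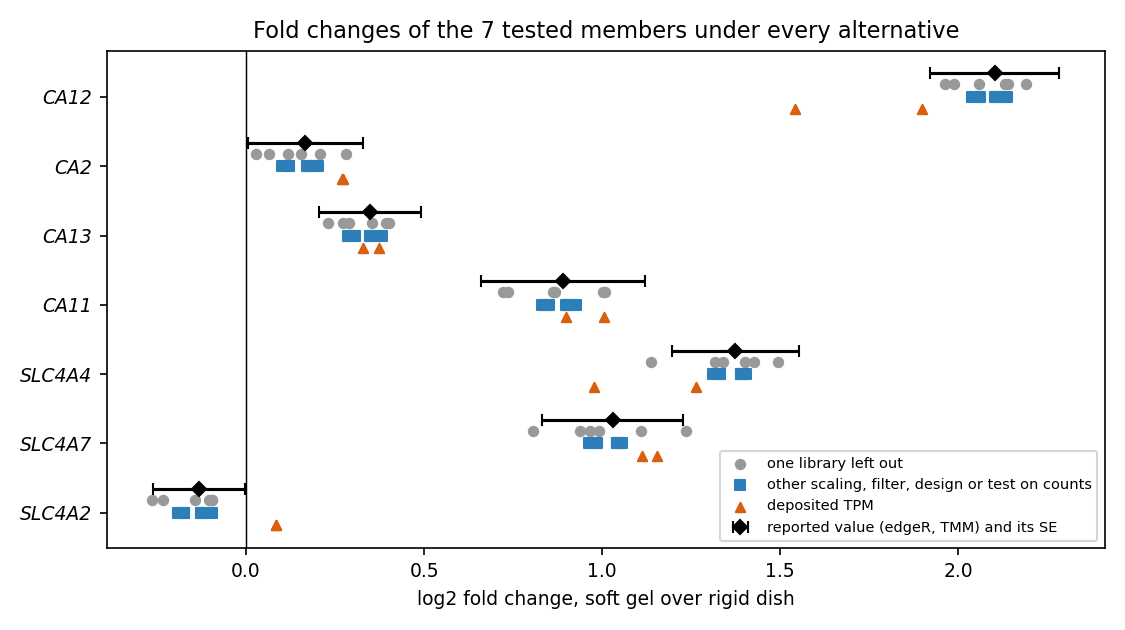
Log2 fold change (x axis, soft gel over rigid dish) of the 7 tested genes (rows): the edgeR value with its SE (black diamonds), values with 1 library left out (grey), with other scalings, filters, designs or tests on counts (blue) and on the deposited TPM (orange). CA12, SLC4A4, SLC4A7, CA11, CA13 and CA2 stayed above 0 throughout, and SLC4A2 was below 0 on counts and above 0 on TPM.

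Levels were compared between genes on the deposited TPM, which are per length. In soft gel the order was SLC4A2 (182 ± 15.0 TPM), CA2 (53.6 ± 9.14), SLC4A7 (38.6 ± 7.91), CA11 (11.2 ± 5.00), CA13 (7.99 ± 0.159), CA12 (7.78 ± 1.16), SLC4A4 (5.13 ± 0.318) and CA9 (0 to 0.14 TPM). On the rigid dish it was SLC4A2 (172 ± 13.5 TPM), CA2 (44.1 ± 5.18), SLC4A7 (17.9 ± 7.01), CA13 (6.22 ± 1.16), CA11 (5.26 ± 1.11), SLC4A4 (2.19 ± 0.824), CA12 (2.00 ± 0.0458) and CA9 (0.05 to 1.71 TPM). In soft gel CA11, CA13 and CA12 did not differ beyond their spread, and on the rigid dish CA13 and CA11, and SLC4A4 and CA12, did not.

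Within its family of 15 carbonic anhydrase genes, CA2 held 57.3% ± 7.61 of the summed TPM in soft gel and 63.0% ± 4.79 on the rigid dish. CA12 held 8.33% ± 0.905 in soft gel and 2.87% ± 0.204 on the rigid dish. The family's summed TPM was 93.2 ± 3.84 in soft gel and 70.0 ± 6.16 on the rigid dish, without overlap. The extracellular-facing pair CA9 and CA12 summed to 7.39, 9.09 and 7.03 TPM in soft gel, against 3.70, 2.25 and 2.01 TPM on the rigid dish, and the cytosolic pair CA2 and CA13 to 61.6 ± 9.02 TPM in soft gel and 50.3 ± 4.95 TPM on the rigid dish. Among 10 SLC4 genes, SLC4A2 held 71.5% ± 4.70 of the summed TPM in soft gel and 79.9% ± 3.42 on the rigid dish, SLC4A7 held 15.2% ± 3.23 in soft gel and 8.14% ± 2.23 on the rigid dish, and SLC4A4 held 2.02% ± 0.216 in soft gel and 0.997% ± 0.288 on the rigid dish. CA2 and SLC4A2 thus remained the most abundant gene of their family in every library.

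**Figure D3:**
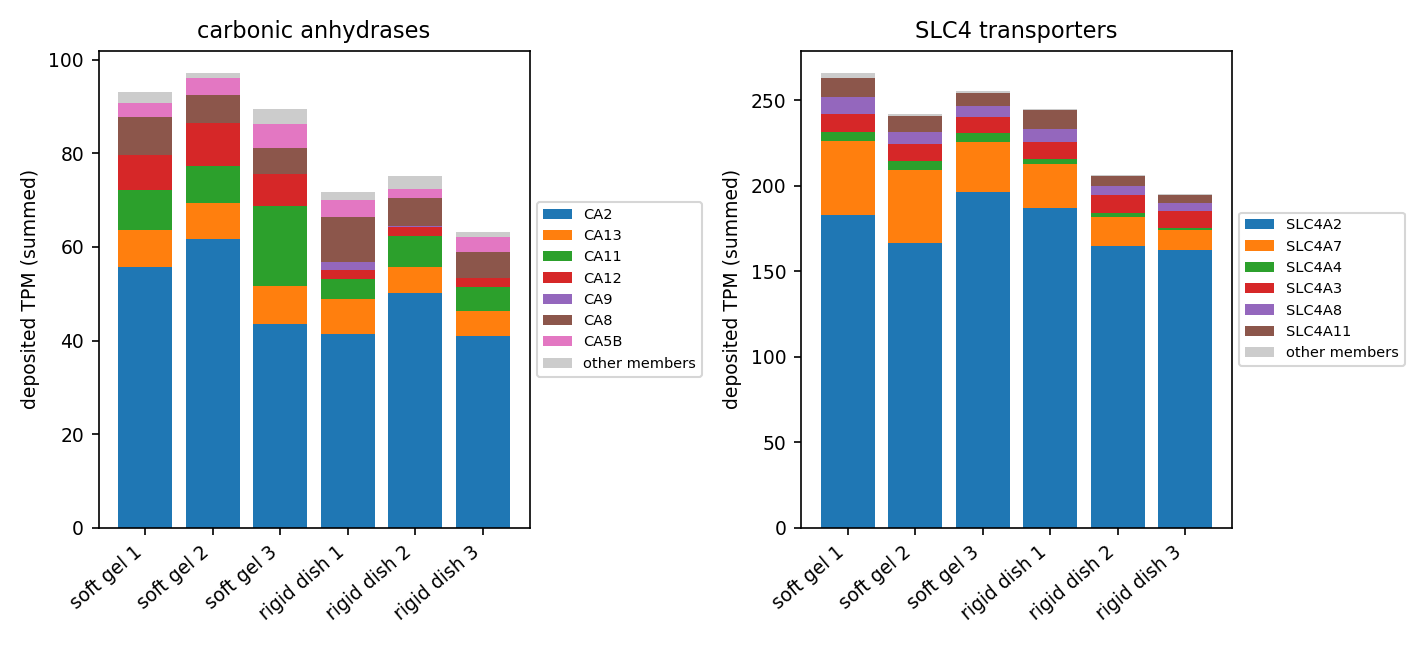
Deposited TPM (y axis, stacked from 0) of the 15 carbonic anhydrase genes (left) and the 10 SLC4 genes (right) in each soft gel and rigid dish library, with the smaller genes summed in grey. CA2 and SLC4A2 were the largest segment in every bar, and the CA12 and SLC4A7 segments were larger in the soft gel bars.

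The remaining genes of the families were taken whole, from lists of pathway and family members. Of 10 other carbonic anhydrases, 4 had enough counts to be tested, and 0 were called by edgeR (1 was higher by DESeq2 and 1 at an unadjusted p under 0.05), with a median log2 fold change of -0.10. They were CA8, an acatalytic relative of CA11 (12.2 ± 2.07 CPM in soft gel, 13.8 ± 2.07 CPM on the rigid dish), the mitochondrial CA5B (7.03 ± 1.37 CPM in soft gel, 7.12 ± 0.967 CPM on the rigid dish), CA3 and the membrane-bound CA14 (1.22 ± 0.775 CPM in soft gel, 0.408 ± 0.151 CPM on the rigid dish, edgeR adjusted p = 0.0566). CA14, the gene at an unadjusted p under 0.05, had 21, 17 and 45 counts in soft gel, against 15, 6 and 9 counts on the rigid dish. CA14 passed the low-count filter through the soft gel libraries. CA5B overlaps the pseudogene CA5BP1, with which it could share reads, and is uncertain. Of 7 other SLC4 genes, 5 were tested, 2 were higher and 0 lower, with a median of 0.72. Of all genes tested, 15.4% were called higher and 13.2% lower. SLC4A11, a membrane transporter best known from the cornea, had 17.0 ± 3.57 CPM in soft gel and 10.3 ± 0.594 CPM on the rigid dish (log2 fold change 0.72, edgeR adjusted p = 0.0168). Its call was lost without soft gel 1 (0.0810), rigid dish 2 (0.0674) or rigid dish 3 (0.0654) and on TPM (0.429 and 0.410). SLC4A10, a sodium bicarbonate transporter of neurons named here after its values were seen, had 91, 76 and 30 counts in soft gel, against 7, 8 and 9 counts on the rigid dish, and it passed the low-count filter through the soft gel libraries.

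Transporters and pumps of protons and transporters of lactate were counted next. The edgeR calls of each list stand beside 15.4% higher and 13.2% lower among all genes tested. Of 9 tested sodium-proton exchangers, 1 was higher and 0 lower, with a median log2 fold change of 0.23. The higher one, SLC9A4, named after its values were seen, had only 17, 20 and 11 counts in soft gel, against 9, 6 and 4 counts on the rigid dish, and it passed the low-count filter through the soft gel libraries. Its edgeR adjusted p was 0.0497, and DESeq2 called 0 genes of this list. Of 4 tested SLC26 anion exchangers, 0 were called by edgeR and 0 by DESeq2 (2 were higher at an unadjusted p under 0.05), with a median of 0.40. Of 4 tested monocarboxylate transporter genes, with a median of -0.12, 1 was higher and 1 lower. SLC16A3 (MCT4), a lactate exporter of glycolytic cells, was lower at 106 ± 17.4 CPM in soft gel against 173 ± 12.9 CPM on the rigid dish (log2 fold change -0.71, edgeR adjusted p = 0.00725). SLC16A7 (MCT2), a high-affinity carrier, was higher at 37.2 ± 10.8 CPM in soft gel against 16.0 ± 4.24 CPM on the rigid dish (1.22, edgeR adjusted p = 0.00893, but 0.177 and 0.176 on TPM). Of 22 tested proton pump and channel genes, mostly subunits of the vacuolar proton pump, 9 were higher and 0 lower, where 15.4% of all genes tested were called higher and 13.2% lower, and the median log2 fold change was 0.35, against 0.05 over all genes tested. The 9 include ATP6V0D2, with 16, 24 and 17 counts in soft gel against 3, 3 and 8 counts on the rigid dish, which passed the low-count filter through the soft gel libraries and is named after its values were seen. ATP6AP1, an accessory subunit, had 284 ± 19.5 CPM in soft gel and 163 ± 34.5 CPM on the rigid dish (0.80, edgeR adjusted p = 0.00686), and ATP6V1C1, subunit C, 106 ± 13.8 CPM in soft gel and 67.8 ± 5.44 CPM on the rigid dish (0.64, edgeR adjusted p = 0.00793, but 0.0662 and 0.0646 on TPM). The anhydrase, SLC4, SLC26, sodium-proton exchanger and pump lists each had 0 lower genes by edgeR, by DESeq2 and at an unadjusted p under 0.05. These lists were put together after their results were seen, so the 0 for the group was fixed by that choice. It describes the lists chosen and supports nothing further. The monocarboxylate list (1 lower by edgeR) and the list of transporter partners (3 lower) are not among them. Neither are the HIF target genes (6 lower) and the HIF factors and regulators (2 lower).

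Partners of these transporters and acid sensors were also counted. Of 10 tested partners, 1 was higher and 3 lower, where 15.4% of all genes tested were called higher and 13.2% lower. Their median log2 fold change was -0.14. AHCYL2, a relative of the NBCe1-binding protein IRBIT, had 66.8 ± 3.89 CPM in soft gel and 37.3 ± 4.10 CPM on the rigid dish (log2 fold change 0.84, edgeR adjusted p = 0.00228). SLC9A3R1 (NHERF1), a scaffold of membrane transporters, had 26.5 ± 3.07 CPM in soft gel and 43.9 ± 3.54 CPM on the rigid dish (-0.73, edgeR adjusted p = 0.00513), and ezrin (EZR), which links such scaffolds to actin, 554 ± 94.6 CPM in soft gel and 817 ± 64.0 CPM on the rigid dish (-0.56, edgeR adjusted p = 0.0189). The EZR call was lost without soft gel 1 (0.0704), soft gel 2 (0.0738) or rigid dish 2 (0.0709). The third lower partner, SLC9A3R2 (NHERF2), had 54.4 ± 5.03 CPM in soft gel and 76.2 ± 14.1 CPM on the rigid dish, without overlap in CPM but with overlap in TPM. Of 10 acid sensors only 3 had enough counts, and these 3 were called higher, where 15.4% of all genes tested were. So few genes describe those 3 and not acid sensors as a class. ASIC1, an acid-sensing ion channel, had 8.23 ± 0.342 CPM in soft gel and 4.11 ± 0.871 CPM on the rigid dish (1.003, edgeR adjusted p = 0.00796, but 0.0505 on TPM with a pseudocount of 0.1). The others, named after their values were seen, were ASIC3 (1.52) and the capsaicin receptor TRPV1 (0.99).

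HIF factors and targets were set beside CA9 and CA12. Of 26 HIF target genes, all tested, 3 were higher, 6 lower and 17 not called, where 15.4% of all genes tested were called higher and 13.2% lower. Over the 26 genes the median was -0.14 on the log2 scale. LDHA, the lactate dehydrogenase subunit, had 726, 612 and 758 CPM in soft gel, against 1776, 1305 and 1165 CPM on the rigid dish (log2 fold change -1.02, edgeR adjusted p = 0.00361, but 0.0525 and 0.0501 on TPM). MXI1, a MYC antagonist, had 16.6 ± 0.479 CPM in soft gel and 7.89 ± 1.55 CPM on the rigid dish (1.08, edgeR adjusted p = 0.0033), and the aldolase ALDOC 12.1 ± 1.08 CPM in soft gel and 6.45 ± 0.661 CPM on the rigid dish (0.91, edgeR adjusted p = 0.00501). DDIT4, an inhibitor of mTORC1, was called lower (-2.005, edgeR adjusted p = 0.0317), but rigid dish 1 (9.21 CPM) lay below the soft gel libraries (10.2, 14.2 and 11.8 CPM), and its call was lost under 8 of 15 alternatives. Leaving out soft gel 1 (adjusted p = 0.107), soft gel 2 (0.0953), soft gel 3 (0.0595), rigid dish 2 (0.102) or rigid dish 3 (0.0686) ended it. The remaining called targets are named after their values were seen, and their groups did not overlap in CPM. Lower were SLC2A1 (-0.96, edgeR adjusted p = 0.00142), ENO1 (-0.60, 0.00572), PDK1 (-0.87, 0.0334) and BHLHE40 (-0.83, 0.0178). In TPM the PDK1 groups overlapped, at 4.77, 5.33 and 5.19 in soft gel against 14.2, 6.89 and 4.99 on the rigid dish. PFKFB3 was higher (0.50, edgeR adjusted p = 0.0130). Of 8 tested HIF factors and regulators 0 were higher by edgeR or DESeq2 (1 at an unadjusted p under 0.05) and 2 lower, namely ARNT2, a partner subunit (27.8 ± 1.16 CPM in soft gel, 44.3 ± 3.05 CPM on the rigid dish), and VHL, which targets HIF for degradation (45.6 ± 3.48 CPM in soft gel, 66.7 ± 3.27 CPM on the rigid dish, with the call lost at 0.05003 without soft gel 1). Their list had a median log2 fold change of -0.10. HIF1A had 151 ± 36.7 CPM in soft gel and 117 ± 10.3 CPM on the rigid dish and did not pass (edgeR adjusted p = 0.139).

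**Figure D4:**
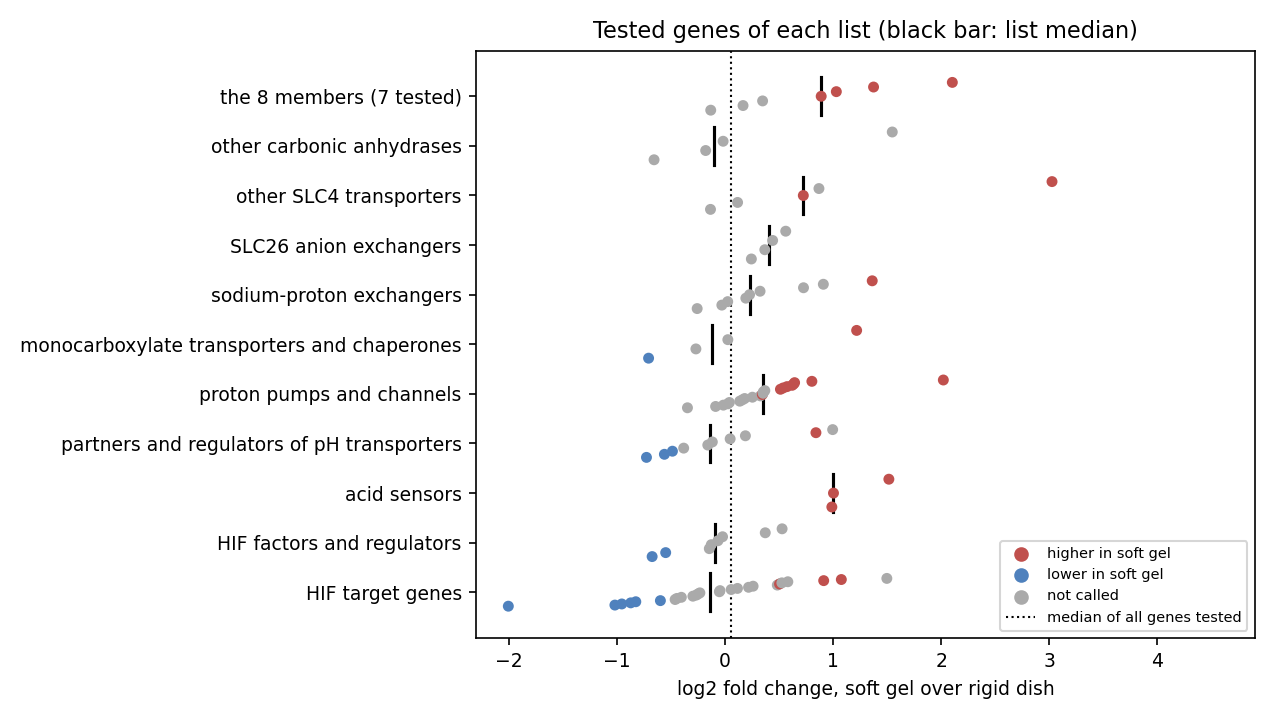
Log2 fold change (x axis, soft gel over rigid dish) of every tested gene in the 8 chosen genes and in each of 10 further lists (rows), coloured by the edgeR call (red higher, blue lower, grey not called), with the list median as a black bar and the median of all genes tested (0.05) as a dotted line. Proton pump genes and acid sensors that were called lay to the right, and HIF target genes lay on both sides.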

How the data were processed

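RNA of 6 DBTRG libraries was analysed from 1 deposited table of 58884 genes. HISAT2, HTSeq and the build hg38 are named, with no version or role, per the submitters' processing notes. The authors deposited estimated counts (11.3% to 13.0% of values per library are not whole), TPM, gene lengths, and their own comparison of the groups, which lists for each gene the linear fold, its log2 and p-values before and after adjustment. The name of that deposited table refers to DESeq2. No source used here names the program behind the estimated counts.

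Counts were rounded, filtered with filterByExpr (minimum count 10), scaled by TMM and tested by quasi-likelihood in edgeR 4.0.16 (with limma 3.58.1 under R 4.3.3). All 16098 tested genes were fitted together, p-values were adjusted over all of them (Benjamini-Hochberg), and genes were called at an adjusted p under 0.05. SE values come from the test statistic, and fold changes put soft gel over rigid dish. The pipeline was tested on simulated data. Positions are from GENCODE 29 (hg38).

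The members and lists were chosen with earlier results of these data known. All 8 members were named, with up to 2 higher and 2 lower genes per list that averaged 5 CPM or more; other genes are said to be outside this rule or give context beside a member. Alternatives were scaling by upper quartile or by the size factors of DESeq2, no filter, 1 CPM in 3 libraries, a replicate block, limma-voom, DESeq2 1.42.0, the deposited TPM in limma on a log2 scale with pseudocounts of 1 and 0.1, and leaving out each library.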

Additional observations from a re-analysis of the deposited data

How the results depend on the processing

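The count of higher members was 3 on both TPM scales and without soft gel 1, soft gel 3 or rigid dish 2, because CA11 was lost, and 4 otherwise, so that it ran from 3 to 4 on leaving out 1 library. The count of lower members was 1 without the low-count filter (CA9), and 0 otherwise, including each library left out (0 to 0). Over the 7 tested members and 15 alternatives, 98 of 105 values kept direction and side of the threshold, 5 (all CA11) lost the call and 2 (SLC4A2 on TPM, 0.0844 with pseudocount 1 and 0.0849 with 0.1) turned sign. Of 225 values of the 15 other genes named by the rule, 201 were kept, 24 lost the call and 0 turned sign. Genes named outside that rule are not in this count. Over all genes, 2480 were higher and 2123 lower. TPM gave 1345 and 968 (pseudocount 1) or 1327 and 960 (0.1). Leaving out 1 library gave 1006 to 3239 higher and 797 to 2925 lower, so 1 library can move the number of genes called. With the replicate block, 3499 genes were higher and 2943 lower, and the members' counts were 4 and 0. Deviations of same-numbered libraries correlated at 0.27, 0.02 and 0.41 for numbers 1, 2 and 3. Those of differently numbered libraries correlated at -0.36 to 0.19, below the values for numbers 1 and 3. The labels do not say that a number marks a shared culture or day, so the block was kept as an alternative. Whether the numbers pair the libraries is not known. CA9 rested on 1 library, rigid dish 1 (ratio of counts 0.0514 with it and 0.281 without it), and its depth, 44 counts over 6 libraries, limits what can be said.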

Other observations

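The genes most like each member in profile over the 6 libraries were listed, by the root mean square difference of log2 CPM after centring each gene, among 10928 protein-coding genes with a mean of 5 CPM or more. All such distances share the same libraries and the group difference, so they are descriptions. Nearest to CA12 were the lysosomal protease TPP1 (distance 0.0498, log2 fold change 1.99) and the matrix protease ADAMTS9 (0.0584, 2.05). Nearest to SLC4A7 were the chromatin organiser SATB1 (0.0268, 1.06) and LNPK (0.0593, 1.04). Nearest to SLC4A4 was STC1, the gene of the series title (0.125, 1.29), followed by ASAH1, the lysosomal acid ceramidase (0.138, 1.26). Both SLC4A4 distances were larger than those of the 3 nearest genes of every other tested member, which reached 0.101, so these matches were comparatively poor. Nearest to CA11 was RARRES2, which encodes the secreted protein chemerin (0.0639, 0.82).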
